A study of Mus musculus with 12 samples.

Results

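Stk11, Prkaa1, Prkaa2, Mtor, Rptor, Rictor, Tsc1, Tsc2 and Rheb, the core genes of LKB1, AMPK and mTOR signaling, were followed across rods and whole retina of mice that lack the tyrosine phosphatase Shp2 in rods. These 9 genes were picked by symbol out of 56748 genes in the deposited expression table. Groups of 3 libraries each, 12 in all, from mice aged 2 weeks, were sequenced. KO mice carried RiboTag;Shp2fl/fl;i75-Rod-Cre, and their control littermates, called Het here, carried RiboTag;Shp2fl/+;i75-Rod-Cre. Both genotypes therefore shared the tagged ribosome, the Cre and at least 1 floxed Shp2 allele, so no group was free of Cre or had both Shp2 alleles intact. Cre was driven by a rod promoter and the animals were homozygous for RiboTag, which places an HA tag on ribosomes of cells with Cre. Rod libraries hold the mRNA pulled down with those ribosomes (TRAP), and retina libraries hold RNA of the whole tissue before the pull-down. The titles call the control libraries wt, although the genotype label of each is heterozygous. No source used here says whether libraries with different numbers came from different animals, so p-values measure the spread between these libraries only.

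LKB1, the protein of Stk11, is a serine/threonine kinase that works with the pseudokinase STRAD and the scaffold MO25 and switches on AMPK and its relatives by phosphorylating their activation loop. AMPK senses a low energy state and has a catalytic α subunit, of which Prkaa1 encodes α1 and Prkaa2 encodes α2, beside β and γ subunits. It restrains mTORC1, the complex of the kinase mTOR and Raptor (Rptor) that drives protein and lipid synthesis, through TSC2 and Raptor. TSC1 and TSC2 form the brake on the GTPase Rheb, the direct activator of mTORC1, whereas Rictor marks the second mTOR complex, mTORC2. Photoreceptors renew their outer segments daily and consume much glucose, and AMPK and mTORC1 are both known to affect their metabolism and survival.

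The contact between the first 2 steps of the pathway lies in the kinase activation segment. The coding bases of this segment in LKB1 and in both AMPK α subunits are shown because LKB1 acts on the AMPK segments and because they display how unlike the members are in base composition. Each runs 5′ to 3′ on the coding strand of GRCm38, from the codon of the aspartate that opens the segment to that of the closing glutamate, with the intron in between left out. Capitals mark the codon of the threonine that LKB1 phosphorylates.
Stk11, chr10:80126148-80126304, plus strand: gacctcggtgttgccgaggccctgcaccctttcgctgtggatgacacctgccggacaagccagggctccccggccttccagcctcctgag
Prkaa1, chr15:5168706-5170002, plus strand: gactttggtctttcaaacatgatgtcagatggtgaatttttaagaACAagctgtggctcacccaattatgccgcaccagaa
Prkaa2, chr4:105049348-105051208, minus strand: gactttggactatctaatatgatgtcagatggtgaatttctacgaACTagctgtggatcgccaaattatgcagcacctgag

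G or C made up 61 of the 90 bases of the Stk11 segment (67.8%) but 34 of the 81 bases of each AMPK segment (42.0%). The Prkaa1 and Prkaa2 segments were identical at 68 of 81 bases (84.0%). How reads that match both genes were counted is not given in the sources used here.

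Base composition set the 9 genes apart over their whole transcripts as well. Stk11, on chromosome 10 from 80115803 to 80130682 (GRCm38, as all positions here), had a GC content of 59.7%, at percentile 95.8 of the genes tested in rods. Rptor (chromosome 11, 119602905 to 119899576) had 56.5%, Tsc2 (chromosome 17, 24595816 to 24632630) 54.7% and Mtor (chromosome 4, 148448611 to 148557683) 54.2%, at percentiles 85.9, 77.3 and 75. These 4 are the GC-rich members. Tsc1 (chromosome 2, 28641228 to 28691167) with 51.7% and Rheb (chromosome 5, 24802823 to 24842624) with 47.1% lay nearer to the median gene, at 49.5%. Rictor (chromosome 15, 6708379 to 6800401) with 42.5%, Prkaa2 (chromosome 4, 105029874 to 105109890) with 40.7% and Prkaa1 (chromosome 15, 5143861 to 5181899) with 40.2% were GC-poor, at percentiles 13.3, 7.2 and 5.8. Exons overlapped those of a gene on the other strand for Stk11 (232 of 4580 exonic bases, with Cbarp), Tsc2 (693 of 9620, with Pkd1) and Rptor (84 of 13471, with the antisense Rptoros). Whether counting used strand is not given in the sources used here, so reads from those stretches cannot be assigned to 1 of the 2 genes.

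The table holds read numbers that had been multiplied by 1 factor per library and rounded. Totals were made nearly equal within a fraction, 14525527 to 14527992 in retina and 16263948 to 16265259 in rods, so they do not give the sequencing depth. All 8 rod markers, Gnat1 and Nrl among them, were higher in rod TRAP than in retina in both genotypes, while all markers of cones (5), Müller glia (5), amacrine cells (4) and ganglion cells (4) and 4 of 5 for bipolar cells were lower. Of the markers of horizontal cells, microglia, endothelium and pigment epithelium, none was higher in rods. The targeted gene Ptpn11, which encodes Shp2 and is read here over its whole length, had scaled values of 2459, 2376 and 2415 in the Het rod libraries and of 1796, 2310 and 1984 in those of KO. All 3 KO values were below all Het values, with a log2 fold change of -0.26 (SE 0.09) that missed the threshold (limma, adjusted p = 0.064). Each library also had its own trend with GC content, measured as the median log2 deviation of the highest GC decile minus that of the lowest. The 3 Het rod libraries had trends of -0.81, -0.23 and -0.42, and those of KO rods 0.42, 0.76 and 0.28. Retina libraries had -0.24, 0.86 and -0.84 (Het) and 0.01, -0.63 and 0.90 (KO). In rods the trend separated the genotypes without overlap, so a KO difference of a GC-rich gene and this trend cannot be told apart in these libraries.

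All 9 genes were well detected, and each passed the filter on low values in every comparison (a value of about 10 in at least 3 libraries). Per kilobase of transcript, with values scaled over all 12 libraries by the TMM method (which sets libraries to a common scale by the bulk of their genes), Rheb stood highest in each group, at 890 ± 32 (SD, n = 3) in Het rods and 620 ± 132 in Het retina. Stk11 came second, at 284 ± 25.5 per kilobase in Het rods, followed there by Tsc2 at 237 ± 18.1 and Rictor at 194 ± 20.7. Prkaa1 (158 ± 20.2), Mtor (157 ± 8.15), Rptor (138 ± 19.8) and Tsc1 (133 ± 4.56) came after them, and from Rictor to Tsc1 each gene overlapped with its neighbour. Prkaa2 was the lowest member in every group, at 56.6 ± 1.82 per kilobase in Het rods against 86.9 ± 17.1 in Het retina. In Het retina the libraries of all neighbours from Stk11 down to Prkaa2 overlapped, and Rheb alone stood apart.

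**Figure D1:**
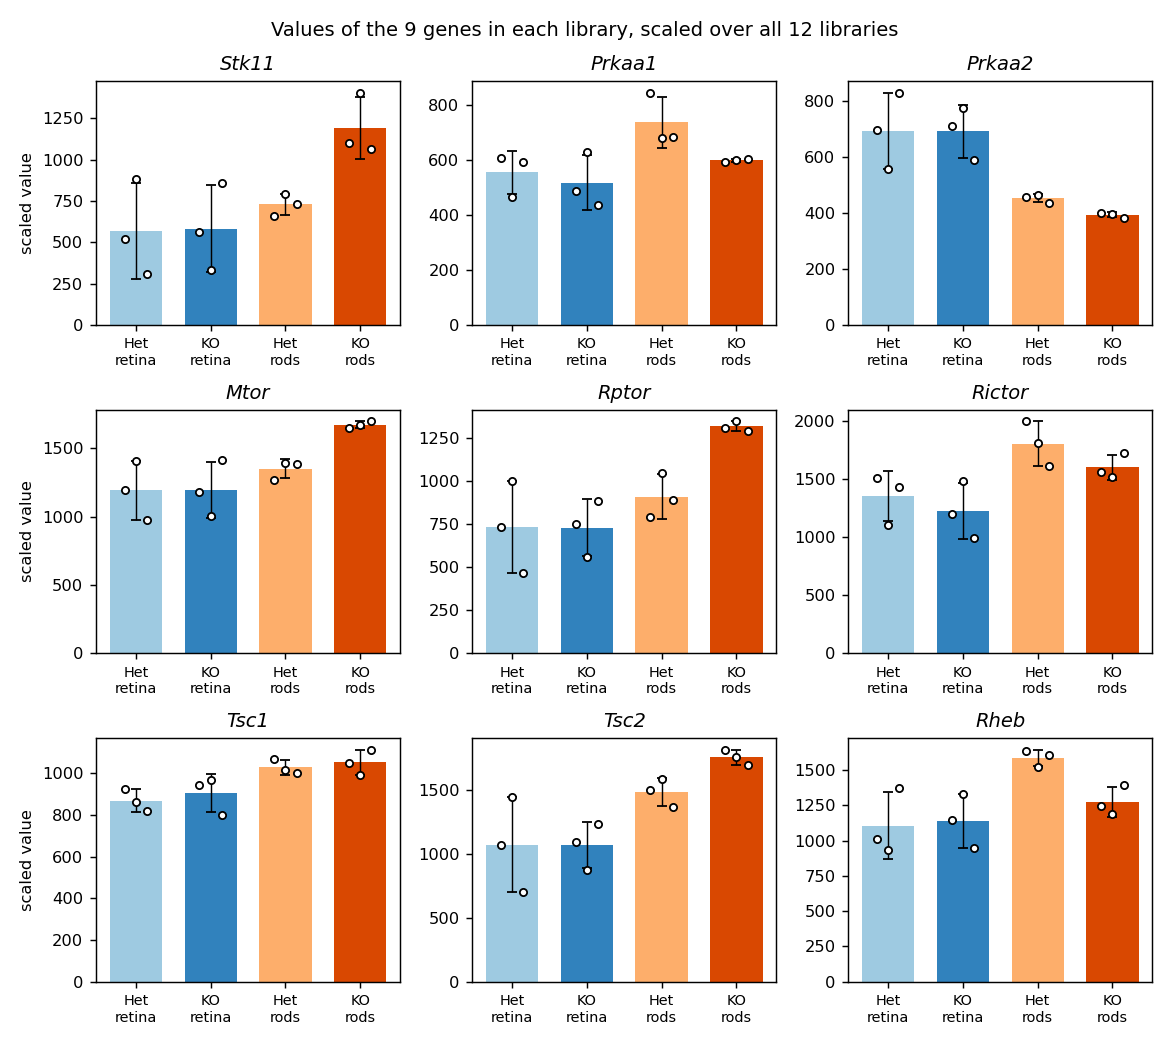
Values of each of the 9 genes (y axis, values scaled over all 12 libraries, not per length) in the 4 groups. Bars give the mean, error bars the SD and circles the 3 libraries. Prkaa2 is lower in all 6 rod libraries than in any retina library, and Stk11 in retina runs from 305.3 to 882.4 in Het alone.

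The first comparison asked how the pathway stands in rod ribosomes against whole retina. Prkaa2 was the single member lower in rods in both genotypes, and Stk11, Rptor and Tsc2 were higher in KO rods than in KO retina. Values were scaled anew over the 6 libraries compared and fitted by limma as log2(scaled value + 2). The text calls a gene changed where this gave an adjusted p under 0.05 together with an absolute log2 fold change over 0.5. By that rule 1 of the 9 genes changed in Het, where 58.2% of all 16110 genes tested did (21.4% higher and 36.8% lower), and 4 of 9 changed in KO, where 62.2% of 16121 did (25.7% higher and 36.5% lower). On p alone, 1 of 9 passed in Het (62.2% of all genes) and 5 of 9 in KO (67.3%). Rods and retina did not overlap for 2 of 9 genes in Het, Prkaa1 and Prkaa2, beside 68.6% of all genes, and for 7 of 9 in KO, beside 72.1%. Over the 9 genes the log2 fold change had a median of 0.24 in Het and 0.38 in KO, beside -0.11 and -0.02 over all genes. In these bulk samples, fewer cells of a type and less RNA per cell cannot be told apart, and the retina libraries are not limited to RNA on ribosomes.

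Of the AMPK catalytic subunits, Prkaa2 was lower in rods and Prkaa1 did not pass. Prkaa2, which encodes α2, had scaled values of 428, 445 and 416 in Het rods and of 731, 608 and 882 in Het retina. Every rod value was below every retina value, and the log2 fold change was -0.77 (SE 0.16, adjusted p = 0.0026 by limma). In KO the values were 396, 394 and 378 in rods and 713, 775 and 592 in retina, again without overlap, at a log2 fold change of -0.82 (SE 0.14, adjusted p = 0.00069 by limma). Prkaa1, which encodes α1, gave 793, 652 and 654 in Het rods and 637, 510 and 632 in Het retina. Its log2 fold changes of 0.24 (SE 0.15) in Het and 0.21 (SE 0.15) in KO missed the threshold (adjusted p = 0.19 and 0.25, limma).

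The ratio of the 2 subunits within a library needs no scaling between libraries, and their GC contents are nearly equal. Deposited Prkaa2 values divided by Prkaa1 values gave 0.54, 0.682 and 0.635 in the Het rod libraries, and KO rods had 0.674, 0.662 and 0.636. The same ratio was 1.15, 1.19 and 1.4 in Het retina and 1.46, 1.23 and 1.35 in KO retina. All 6 rod libraries thus had more α1 than α2 mRNA reads and all 6 retina libraries more α2 than α1 reads, while the ratios of Het and KO overlapped in each fraction. Per length of 1 annotated transcript for each gene (4655 bases for Prkaa1 and 7969 for Prkaa2), the ratio was 0.362 on average in Het rods and 0.727 in Het retina. With those lengths assumed, α1 mRNA was the more abundant in both. The transcript forms present were not examined, so the order in retina rests on the assumed lengths. With 3 libraries against 3, an exact permutation test cannot give a two-sided p below 0.1.

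Stk11, the LKB1 kinase gene, had scaled values of 621, 761 and 701 in Het rods and of 546, 968 and 326 in Het retina. The retina libraries spread on both sides of the rod libraries, and the log2 fold change of 0.31 (SE 0.34) did not pass (adjusted p = 0.44, limma). In KO it had 1088, 1395 and 1051 in rods against 562, 331 and 864 in retina. Here all rod values were higher, by a log2 fold change of 1.10 (SE 0.30, adjusted p = 0.011 by limma).

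Of Rptor and Rictor, which define mTORC1 and mTORC2, and Mtor, the kinase of both, Rptor alone passed in KO. Rptor had 1292, 1335 and 1272 in KO rods and 751, 557 and 887 in KO retina, a log2 fold change of 0.85 (SE 0.17, adjusted p = 0.0018 by limma). Mtor had 1629, 1656 and 1676 against 1180, 1004 and 1418, and its log2 fold change of 0.47 (SE 0.14) passed on p (adjusted p = 0.014, limma) but not on size. Rictor had 1544, 1508 and 1699 against 1207, 1488 and 1000, at 0.38 (SE 0.15, adjusted p = 0.054 by limma), which missed the threshold. All 3 genes were above the retina range in KO rods. In Het their log2 fold changes were 0.20 (SE 0.27) for Rptor, 0.02 (SE 0.16) for Mtor and 0.26 (SE 0.14) for Rictor, with overlapping groups and adjusted p of 0.54, 0.91 and 0.15 by limma.

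Of the TSC complex, Tsc2, the subunit with the GTPase-activating domain, had 1799, 1744 and 1673 in KO rods against 1099, 879 and 1242 in KO retina (log2 fold change 0.71, SE 0.14, adjusted p = 0.002 by limma). In Het it had 1414, 1528 and 1305 in rods and 1128, 1586 and 746 in retina, which overlapped (0.36, SE 0.24, adjusted p = 0.23 by limma). Tsc1, the subunit that stabilizes TSC2, differed by 0.07 (SE 0.11) in Het and 0.20 (SE 0.12) in KO and passed in neither (adjusted p = 0.59 and 0.17, limma). Rheb, the GTPase that TSC2 switches off, had 1533, 1463 and 1535 in Het rods and 1064, 1022 and 1465 in Het retina. Its highest retina library lay within the rod range, and the log2 fold change of 0.37 (SE 0.15) fell short (adjusted p = 0.062, limma). In KO it was 0.15 (SE 0.15, adjusted p = 0.39 by limma).

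**Figure D2:**
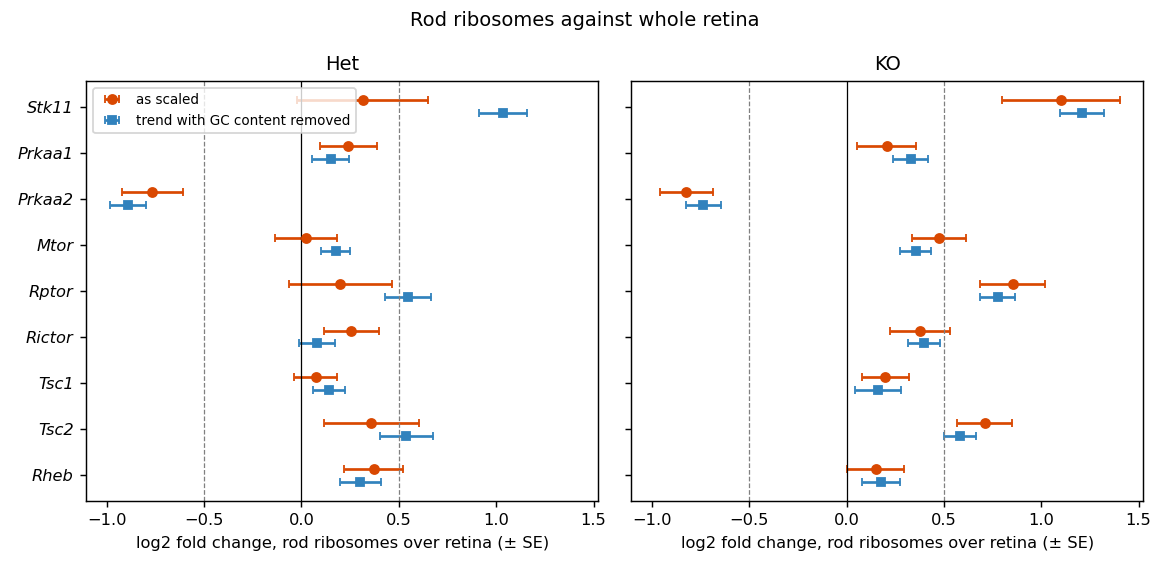
Log2 fold change of rod ribosomes over retina (x axis, ± SE) for each gene in Het (left) and KO (right), as scaled (circles) and with each library's trend with GC content removed (squares). Dashed lines mark 0.5 in either direction. Prkaa2 is the one gene left of -0.5, in both genotypes and both versions, and Stk11 in Het moves from 0.31 to 1.04 with the trend removed.

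With the GC trend of each library removed, the 2 genotypes showed the same 4 genes past the threshold, namely Stk11, Rptor and Tsc2 higher in rods and Prkaa2 lower, where 62.3% of 15879 genes passed in Het and 64% of 15880 in KO. The log2 fold change of Stk11 became 1.04 (SE 0.12) in Het and 1.21 (SE 0.11) in KO, that of Rptor 0.55 (SE 0.12) and 0.78 (SE 0.09), that of Tsc2 0.54 (SE 0.14) and 0.58 (SE 0.08), and that of Prkaa2 -0.89 (SE 0.09) and -0.73 (SE 0.09). The SE of Stk11 in Het went from 0.34 to 0.12. Scaling mattered too. Under library size alone the median log2 fold change of all genes moved from -0.11 to -0.51 in Het and from -0.02 to -0.545 in KO, and every member shifted down with it, so that in Het the sign of the other 8 turned and in KO Prkaa2 alone passed. Of all genes, 53.2% passed in Het and 55.8% in KO under that setting. The KO calls also rested on KO retina replicate 2. Without that library Prkaa2 alone passed, while Stk11 had 0.55 (adjusted p = 0.052, limma), Rptor 0.48 and Tsc2 0.38. Without KO retina replicate 1, Stk11 lost its call (0.95, adjusted p = 0.074 by limma), and without Het retina replicate 2 it gained one in Het (0.57, adjusted p = 0.03 by limma).

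The second comparison asked what the loss of Shp2 did to these genes in rods. Stk11 and Rptor were higher in KO than in Het rods and none of the 9 was lower, so 2 of 9 changed, beside 13.1% of all 13055 genes tested (11.2% higher and 1.91% lower). That share was 6.89% (887 genes) without Het rod replicate 1 and 8.52% (1100 genes) without KO rod replicate 2, and 2 of the 9 passed in either case. The 4 GC-rich members had the highest differences of the 9, and Rheb had the lowest. Het rods and KO rods are the libraries already used above, so these values are not independent of those against retina.

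Stk11 had scaled values of 985, 1355 and 938 in KO rods and of 565, 678 and 637 in Het rods. All KO libraries were above all Het libraries, by 1.72-fold (log2 fold change 0.78, SE 0.14, adjusted p = 0.0046 by limma). Rptor had 1170, 1296 and 1136 in KO and 673, 896 and 773 in Het, without overlap, and was 1.54-fold higher (log2 fold change 0.63, SE 0.11, adjusted p = 0.0042 by limma). Mtor, with 1474, 1607 and 1496 against 1084, 1193 and 1202, passed on p but not on size (0.40, SE 0.08, adjusted p = 0.0077 by limma). Tsc2, with 1629, 1693 and 1494 against 1287, 1362 and 1185, did the same (0.33, SE 0.09, adjusted p = 0.019 by limma). These 4 genes are the GC-rich members, and they are the 4 of 9 that passed on p alone, as 24.3% of all genes did. Of the cell type markers tested, 1 of 5 for Müller glia and 1 of 3 for amacrine cells were higher in KO rods. None of the 8 for rods or of those tested for other types was called. Of the microglia markers 0 of 5 were tested, and of those for horizontal cells and for endothelium 1 of 3 each. Summed amacrine markers, scaled over all 12 libraries, ran from 544 to 658 in KO rods and from 419 to 452 in Het rods. The 3 amacrine markers tested had a median log2 fold change of -0.03. On the same scale, summed Müller glia markers ran from 1250 to 1950 in KO rods and from 1340 to 1970 in Het rods, which overlapped. No marker of either type was at 0 in all libraries, and the part of these markers in the result was not tested.

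The remaining 5 genes did not pass. Tsc1 had 941, 955 and 982 in KO and 913, 870 and 868 in Het rods, a difference of 0.12 (SE 0.08, adjusted p = 0.32 by limma). Rheb had 1113, 1143 and 1225 against 1395, 1305 and 1394, with every KO value lower, at -0.23 (SE 0.08, adjusted p = 0.056 by limma). Prkaa1 had 531, 578 and 531 against 722, 582 and 594, at -0.20 (SE 0.11, adjusted p = 0.19 by limma). Prkaa2 (358, 382 and 337 against 390, 397 and 377) and Rictor (1398, 1464 and 1517 against 1709, 1550 and 1400) overlapped between genotypes, at -0.11 (SE 0.11) and -0.09 (SE 0.09). In all, 7 of the 9 genes did not overlap between KO and Het rods, 5 higher and 2 lower, where 44% of all genes tested did not.

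**Figure D3:**
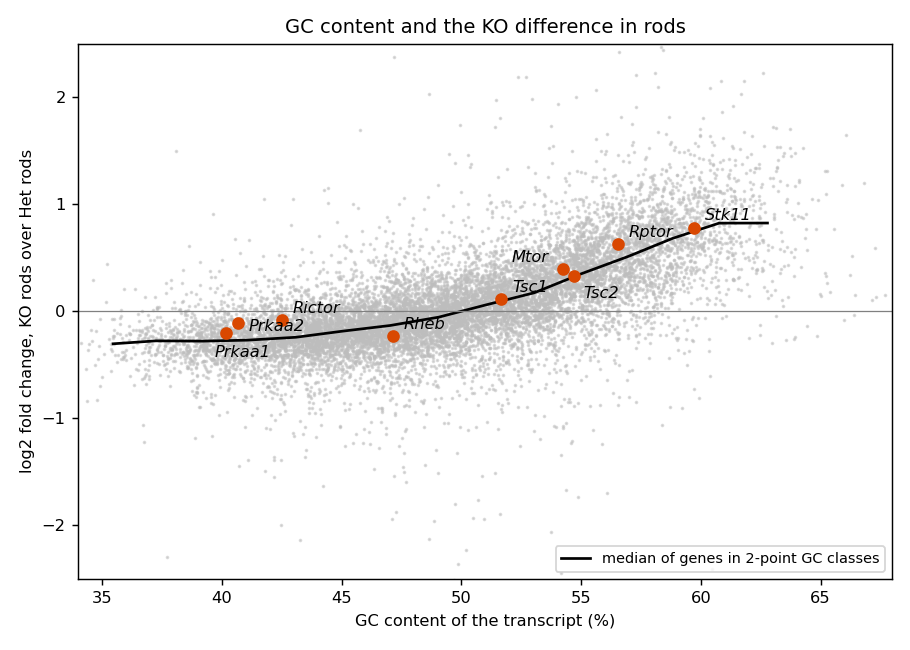
Log2 fold change of KO over Het rods (y axis) against GC content of the transcript in percent (x axis) for 12907 genes (grey, with 55 outside the axes), the 9 genes (orange) and the median in classes of 2 percentage points with at least 50 genes (line). The 9 genes lie close to the line, from Prkaa1 at 40.2% and -0.20 to Stk11 at 59.7% and 0.78.

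The KO difference followed GC content across genes. The 10% of genes lowest in GC had a median difference of -0.28 (log2) and the 10% highest one of 0.69, with a Spearman correlation of 0.7 over 12907 genes, which share libraries and are not independent replicates. Over the 9 genes it was 0.88. With the trend of each library removed, 0 of the 9 genes changed, beside 2.67% of 12907 genes. Stk11 then differed by 0.04 (SE 0.08, adjusted p = 0.8 by limma), Rptor by 0.13 (SE 0.07, adjusted p = 0.31 by limma), Mtor by 0.09 (SE 0.07) and Tsc2 by -0.02 (SE 0.08). Rheb was the lowest of the 9 at -0.14 (SE 0.07, adjusted p = 0.25 by limma). In a single fit of all 12 libraries, whose spread includes the retina, Stk11 (0.70, adjusted p = 0.27) and Rptor (0.54, adjusted p = 0.22) also missed the limma threshold. So did every gene in that fit, where 0 of 17192 changed between KO and Het rods (0%).

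**Figure D4:**
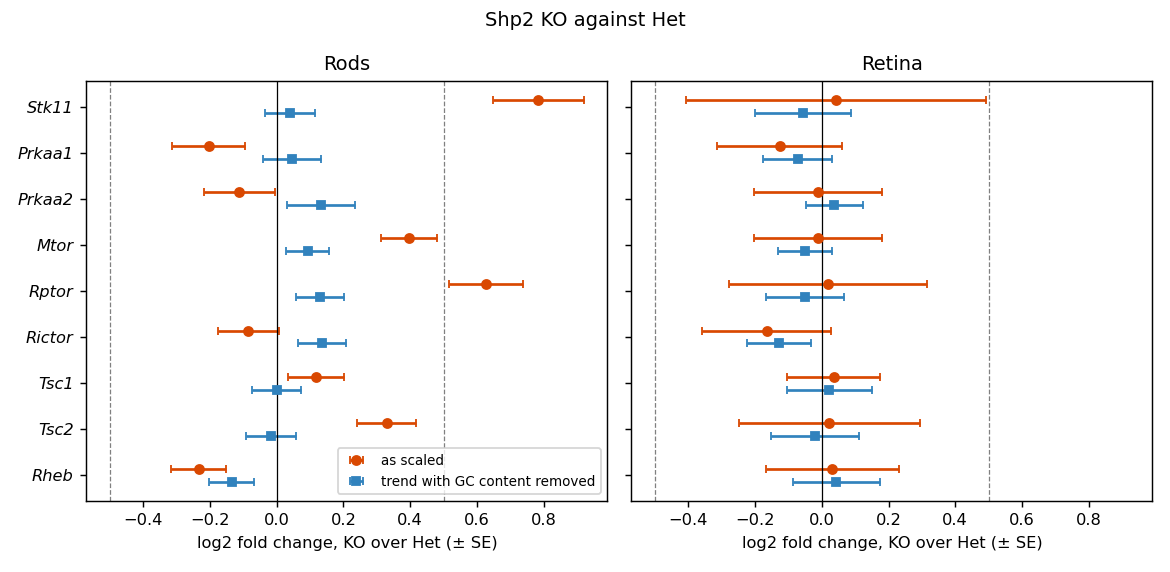
Log2 fold change of KO over Het (x axis, ± SE) for each gene in rods (left) and retina (right), as scaled (circles) and with the GC trend of each library removed (squares). Dashed lines mark 0.5 in either direction. Stk11 and Rptor lie beyond 0.5 in rods as scaled, and no gene does once the trend is removed.

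Single libraries showed the same order. Relative to the mean of the 6 rod libraries, Stk11 deviated by -0.54, -0.28 and -0.36 (log2) in the 3 Het rod libraries, whose GC trends were -0.81, -0.23 and -0.42. It deviated by 0.26, 0.72 and 0.19 in the KO rod libraries, with trends of 0.42, 0.76 and 0.28. In retina, where the trend did not separate the genotypes, Stk11 was at -0.04, 0.75 and -0.78 in Het and at 0.08, -0.69 and 0.68 in KO, again in the order of the trends within each genotype. As a description over 6 libraries, the Pearson correlation of the deviation with the trend was 0.98 for Stk11 in rods and in retina, 0.99 and 0.95 for Rptor, 0.98 and 0.98 for Mtor, and -0.76 and -0.91 for Prkaa1. The library, its preparation and its depth are shared by both quantities, and the origin of the trend was not tested.

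**Figure D5:**
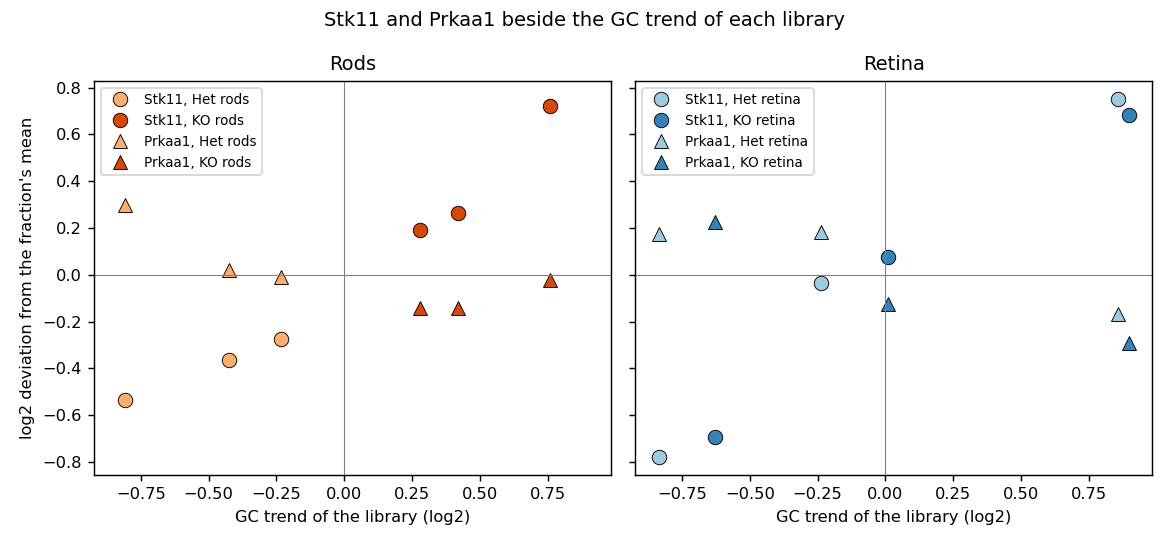
Log2 deviation of Stk11 (circles) and Prkaa1 (triangles) from the mean of their fraction (y axis) against the GC trend of the library (x axis, log2), for 6 rod libraries (left) and 6 retina libraries (right). Het and KO are apart along the x axis in rods and interleaved in retina, and Stk11 climbs with the trend in both.

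The genes that define the 2 mTOR complexes were also read as a ratio within each library. The deposited Rictor value divided by that of Rptor was 1.19, 1.13 and 1.34 in KO rods and 2.54, 1.73 and 1.81 in Het rods. Here the genotypes did not overlap. In retina the ratio was 1.61, 2.67 and 1.13 in KO and 2.06, 1.11 and 3.09 in Het, so the genotypes overlapped. Rictor is GC-poor and Rptor GC-rich. The Tsc2 to Tsc1 ratio, between genes of closer GC content, ran from 1.52 to 1.77 in KO rods and from 1.36 to 1.57 in Het rods, which overlapped.

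In whole retina, 0 of the 9 genes changed between KO and Het, and so did 0 of 16863 genes tested (0%) by limma. Without adjustment 140 genes had p below 0.05, none of the 9 among them, and 594 genes (3.52%) did not overlap between genotypes. Stk11 had scaled values of 651, 381 and 992 in KO and of 602, 1042 and 359 in Het. The 2 sets interleave, and the log2 fold change was 0.04 with an SE of 0.45, so a difference of the size seen in rods could not have been resolved for this gene. For the other 8 genes the log2 fold change lay between -0.17 (Rictor, SE 0.19) and 0.04 (Tsc1, SE 0.14), and all groups overlapped. Prkaa2, for example, had 826, 891 and 679 against 806, 654 and 973 (-0.01, SE 0.19). With the GC trend removed the SE of Stk11 fell to 0.14, with a difference of -0.06.

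An interaction term in a fit of the 12 libraries tested whether the KO difference was larger in rods than in retina. No member passed, nor did any of 17192 genes (0%) by limma. At an unadjusted p below 0.05, 604 genes passed. The difference of log2 fold changes was 0.64 (SE 0.51, adjusted p = 0.8) for Stk11, 0.50 (SE 0.33, adjusted p = 0.8) for Rptor and -0.37 (SE 0.22, adjusted p = 0.8) for Rheb by limma. The rise of Stk11 and Rptor in KO rods was therefore not shown to be particular to rods.

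The wider pathway was read from 84 further genes in 11 groups. In Het rods against Het retina, 21 of the 81 tested were higher and 20 lower, and in KO rods against KO retina 32 of 82 were higher and 17 lower. Of all genes, 21.4% were higher and 36.8% lower in Het, and 25.7% and 36.5% in KO. The split turned under library size alone, with 6 higher and 30 lower in Het and 7 higher and 27 lower in KO, and all directions below are relative to the bulk of genes as TMM sets it. The lysosomal amino acid branch, whose Rag GTPases, Ragulator and folliculin complex bring mTORC1 to the lysosome, had 7 of 13 genes higher and 0 lower in each genotype, at a median log2 fold change of 0.52 in Het and 0.58 in KO, beside -0.11 and -0.02 over all genes. That is 53.8% of the branch, where 21.4% of all genes were higher in Het and 25.7% in KO. Fnip2, a folliculin partner, was higher by 1.12 (SE 0.14, adjusted p = 0.00012 by limma) in Het and 1.30 (SE 0.11) in KO. Fnip1 was higher by 0.68 (SE 0.16) and 0.60 (SE 0.20) and Flcn by 0.66 (SE 0.23) and 1.15 (SE 0.13). The Rag GTPase gene Rraga was higher by 0.59 in both (SE 0.11 in Het and 0.12 in KO). Rragd, another, was higher by 0.52 (SE 0.14) in Het and did not pass in KO (0.27, SE 0.13, adjusted p = 0.085 by limma). With the GC trend removed 7 of 13 were again higher in each genotype, but in Het Rragd lost its call (0.44) and Lamtor4 gained one (0.78, adjusted p = 0.0023 by limma). Under library size alone 1 (Fnip2) was in Het and 2 (Fnip2 and Flcn) were in KO, with Lamtor1 lower in Het.

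The regulatory partners of LKB1 and AMPK were divided. Cab39 and Cab39l, which encode the MO25 scaffolds of LKB1, were higher in rods by 0.65 (SE 0.10) and 0.95 (SE 0.15) in Het and by 0.70 (SE 0.12) and 0.89 (SE 0.12) in KO, all past the threshold. Prkab1, the β1 subunit of AMPK, had values, scaled over all 12 libraries, of 3770 to 3900 in Het rods and 1110 to 1530 in Het retina, and was higher by 1.32 (SE 0.14, adjusted p = 6.1e-05 by limma) in the fit of the 6 Het libraries, which were scaled on their own. In KO rods its range was 2510 to 3210, against 950 to 1150 in KO retina, with a log2 fold change of 1.36 (SE 0.14). Prkag1, the γ1 subunit, was higher by 0.73 (SE 0.22) in Het and 0.74 (SE 0.20) in KO, and Prkag2, the γ2 subunit, was lower (-0.99, SE 0.17, and -1.35, SE 0.15). Prkag3, the γ3 subunit, was on the same 12-library scale under 2 units in all rod libraries and at 8.12 to 13.9 in retina, and Prkab2, the β2 subunit, was lower in KO (-0.69, SE 0.14) with a value of -0.29 (SE 0.15, adjusted p = 0.13 by limma) in Het. Under library size alone Prkab1 was still called higher and Prkag2 lower in both genotypes, as Cab39l was higher in Het, whereas Cab39 and Prkag1 were not called.

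Of the 8 other mTOR complex genes, 2 were higher and 4 lower in rods in Het, and 3 were higher and 3 lower in KO. Mapkap1, the mSIN1 subunit of mTORC2, and Mlst8, shared by both complexes, were higher in rods in Het (0.76, SE 0.12, and 0.64, SE 0.17) and in KO (0.91, SE 0.11, and 0.86, SE 0.12). Prr5 and Prr5l of this group were lower in Het (-4.11, SE 0.36, and -3.61, SE 0.30). On the 12-library scale Prr5 was at 1.14 to 3.41 in Het rods and Prr5l at 0, so the pseudocount weighs on both. Deptor, an inhibitor of mTOR, was lower in both (-1.45, SE 0.22, and -1.49, SE 0.18). Akt1s1, the mTORC1 inhibitor PRAS40, was lower in Het (-1.17, SE 0.31), where removal of the GC trend left -0.22, which did not pass. In KO, Akt1s1 was not called with RLE scaling, an alternative to TMM, or under library size alone. Its KO values, scaled over all 12 libraries, ran from 62.8 to 96.4 in rods and from 41.4 to 128 in retina. Under library size alone Deptor was still lower in both genotypes, and Mapkap1 and Mlst8 were not called. Of the 12 kinases that LKB1 activates beside AMPK, 1 was higher and 5 lower in Het, and 4 were higher and 4 lower in KO. Snrk was higher (1.05, SE 0.13, in Het and 1.39, SE 0.13, in KO), while Brsk1, Mark1 and Sik1 were lower in Het. Nuak1 and Nuak2 were lower in Het as well (-4.87, SE 0.48, and -4.31, SE 0.315). In KO, Brsk1 and Mark1 were called with RLE scaling too, whereas Sik1 was called under library size alone but not with RLE scaling. Ddit4, a stress-induced inhibitor of mTORC1, was higher by 1.01 (SE 0.20) and 1.17 (SE 0.10). Its relative Ddit4l, the other gene of this group, was called lower in both genotypes (-4.22, SE 0.40, in Het). On the 12-library scale Ddit4l was at 1.15 to 6.87 in Het rods and at 73.2 to 91.3 in Het retina. The pseudocount therefore weighs on the size of the Ddit4l difference.

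The nutrient sensors and substrates were split as well. Sesn1, which encodes a leucine-binding sestrin, was higher in rods by 1.005 (SE 0.12) in Het and 0.89 (SE 0.14) in KO, whereas its relative Sesn3 was lower (-1.01, SE 0.14, and -1.15, SE 0.11). Castor2, an arginine sensor paralog, was lower in Het (-0.76, SE 0.14) and Wdr59, a GATOR2 subunit, higher (0.58, SE 0.12). Of the mTORC1 substrates, Rps6kb1, the S6 kinase, and Grb10 were higher in Het (0.66, SE 0.17, and 0.62, SE 0.13), and the translation repressor Eif4ebp2 was lower (-0.81, SE 0.11). Of the AMPK substrates, Tbc1d4 (-3.16, SE 0.23), Tbc1d1 (-4.18, SE 0.28) and Acacb (-2.21, SE 0.41) were lower in Het. In Het rods they lay near the filter value of 10, at 13.6 to 14.9, 5.72 to 10.2 and 3.41 to 12.6 (scaled over all 12 libraries). The pseudocount of 2 therefore weighs on the size of these differences. In KO with RLE scaling, Wdr59, Grb10, Eif4ebp2, Tbc1d1 and Tbc1d4 were called as well, but Castor2, Rps6kb1 and Acacb were not. Under library size alone, in either genotype, Rps6kb1, Grb10 and Wdr59 were not called and the lower genes were. The RNA of other retinal cells moved with these calls. All 5 Müller glia markers were lower in rods, with none at 0 in all libraries of a group and a summed level (scaled over all 12 libraries) of 1340 to 1970 in Het rods against 29900 to 40300 in Het retina. Their part in the calls was not tested.

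Between KO and Het rods, 13 of 74 pathway genes tested (17.6%) were higher and 0 lower, beside 11.2% and 1.91% of all genes, at a median log2 fold change of 0.17 beside -0.01 over all genes. The median GC content of those 13 was 56.7%, against 52% for all 74. They included Lamtor2 and Lamtor4 of Ragulator (0.83, SE 0.16, and 0.87, SE 0.26), Sec13 of GATOR2 (0.55, SE 0.10) and Itfg2 and Kptn of KICSTOR, the tether of GATOR1 (0.51, SE 0.10, and 0.73, SE 0.17). Others were the mTORC1 substrates Ulk1 (0.53, SE 0.13) and Tfeb (1.34, SE 0.36), Brsk1 and Sik1 (0.61, SE 0.16, and 0.84, SE 0.20), Akt1s1 (1.03, SE 0.25) and Acacb (1.82, SE 0.40). Scaled over all 12 libraries, Acacb had only 3.41 to 12.6 in Het rods and 22 to 36.6 in KO rods. Its passing of the filter at 10 therefore rested on KO, the group where it is high. Tfeb was low as well, at 12.6 to 17.1 in Het rods and 28.9 to 67.3 in KO rods (median 30.9). Under library size alone 10 were higher and 3 lower, the latter being Prkab2, Map3k7 and Mios. With the GC trend removed, 0 were higher and 1 was lower, the AMPK subunit Prkab1 (-0.77, adjusted p = 0.00099 by limma). Prkab1 has a GC content of 55%. As scaled it differed by -0.40 (SE 0.11, adjusted p = 0.027 by limma), short of the size threshold, with all 3 KO libraries below all Het libraries. No gene of the AMPK regulatory subunits, the LKB1 partners (Cab39 -0.12, SE 0.08), the other AMPK kinases (Camkk1 0.23, SE 0.14), the stress inhibitors (Ddit4 0.37, SE 0.10) or the pair of Tbc1d7 (0.25, SE 0.15) and Rhebl1 was called as scaled. Beside Prkab1, the AMPK subunit Prkab2 (-0.42, SE 0.11, adjusted p = 0.017) and the AMPK kinase Map3k7 (-0.42, SE 0.09, adjusted p = 0.0089) passed on limma p but not on size. This was not limited to AMPK genes. Among others, Rragd (-0.38, adjusted p = 0.01), Rps6kb1 (-0.37, adjusted p = 0.014) and Sesn1 (-0.245, adjusted p = 0.048) did so by limma. Ddit4 (adjusted p = 0.02), Flcn (0.49, adjusted p = 0.0064) and Castor2 (0.31, adjusted p = 0.028) did so in the other direction by limma. Of all genes, 24.3% passed on p at any size. In retina 0 of 83 changed. Prkab1 differed there by -0.39 (SE 0.17) as scaled and by -0.44 with the GC trend removed. It did not pass, and its genotypes overlapped.

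The genes whose log2 values ran most like those of Stk11 over the 12 libraries were Pex14, Ubxn11, 1700003E16Rik, Ercc2 and Get3, with Pearson r from 0.991 to 0.994 among 11742 genes compared. Their GC contents were between 56.1% and 60.5%. Among the members, Mtor (r = 0.98), Rptor (0.97) and Tsc2 (0.94) ran closest to Stk11 and Prkaa2 (-0.88) most opposite, whereas Prkaa1 (-0.11), Rheb (-0.14) and Rictor (0.03) showed little likeness. These r values describe 12 libraries that share their GC trends and 2 fractions, and they carry no test.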

How the data were processed

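RNA of 12 libraries (SMART-Seq V4) was sequenced. The submitters' processing notes list CASAVA 1.8.2, HISAT2, DESeq2, edgeR and the build GRCm39, without roles. The counting tool, annotation and strand setting are not given in the sources used here. The deposited values are a signal proportional to reads: the authors' processing scaled each library by 1 factor and rounded, which was inferred from the values, so no count model was run. Genes with a value of 10 in 3 libraries and a sum of 15 were scaled by TMM (own code), raised by a pseudocount of 2, log2-transformed and fitted with limma 3.58.1 (trend and robust) in R 4.3.3, with Benjamini-Hochberg adjustment over all genes tested. Each fit used the libraries of its 2 groups, and the interaction used all 12.

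Transcript GC content, positions and sequences came from a GENCODE annotation of GRCm38, another build than the authors', matched by Ensembl identifier (52073 of 56748). The GC trend of a library was a lowess curve (span 0.3) of its deviations from gene means. The study's removal of rod-depleted genes before comparing KO and Het rods was run as an alternative. Replicate numbers come from titles. Same-numbered libraries deviated together in every pair for Het rods and Het retina alone (r = 0.47, 0.41 and 0.25).

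The 9 genes, the pathway groups, the marker lists and the tests were chosen with earlier results of these data known. Genes named are the 9, Ptpn11, in each pathway group the called genes (at most the 4 with the highest mean) or else the gene with the highest mean, and the 5 genes most like Stk11. Map3k7, Mios, Prr5, Prr5l, Nuak1 and Nuak2 are named outside this rule. No column belonged to another sample (0 found). Fits were tested on simulated data. A few genes that this rule names are not reported here.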

Additional observations from a re-analysis of the deposited data

How the results depend on the processing

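Each comparison was repeated with RLE scaling, library size alone, pseudocounts of 0.5 and 8, no filter on low values, the GC trend removed, a block for the replicate number, each library left out and 1 fit of all 12 libraries. Of the 9 genes, the number changed between KO and Het rods was 2, and it was 0 with the GC trend removed, alone or with the replicate block, and 0 in 1 fit of all 12 libraries. With the GC trend removed 2.67% of all genes changed, or 3.09% with the block, and in the single fit 0 of 17192 did. Leaving out 1 library kept the number of the 9 at 2, as did removing rod-depleted genes. Between Het rods and Het retina the number was 1. It rose to 4 with the GC trend removed, alone or with the block, and to 3 in 1 fit of all 12 libraries (with Tsc2 and Rheb), and ran from 1 to 2 when 1 library was left out. Between KO rods and KO retina it was 4, fell to 1 under library size alone (where 55.8% of all genes changed) and ran from 1 to 4 when 1 library was left out. In retina and in the interaction it was 0 throughout. A block within genotype, added after the data were seen, also left the interaction at 0. The replicate block without GC removal gave 2, 0, 1 and 4 and changed no call of the 9 genes. Pairing by number was not borne out for KO and Het rods (r = 0.18, 0.03 and 0.03). Over single genes, 714 values kept their status as called or not called, 13 lost a call, 10 gained one and 0 reversed a called direction. The 714 include values that were never called, also where their sign turned. The library size setting also moved the split of all genes between Het rods and Het retina from 3453 higher and 5923 lower to 1168 and 7399. The cause of these shifts was not tested. With 3 libraries a group and totals set equal by the authors, depth could not be weighed.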
